A study of Arabidopsis thaliana with 24 samples.

Results

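The comparison described here sets seedlings labelled as an e2fa e2fb e2fc triple mutant, called e2f below, against seedlings labelled as a bte1 btl1 double mutant in Arabidopsis thaliana. Its members were chosen from the sample labels as all libraries of these genotypes, which gave 6 of the 24 libraries and 2 of the 8 genotypes of the series. Poly(A) RNA was sequenced from whole seedlings, 9 days old and kept under continuous white light, and the authors deposited raw read counts per gene. The e2f seedlings are mutated in E2FA, E2FB and E2FC, and the bte1 btl1 seedlings in BTE1 and BTL1. The btl1 single mutant and the Col-0 wild type (WT) are used only as levels to read the difference against. Each genotype had 3 libraries, which the submitters call biological replicates. The labels give no allele and no line for any mutant. The series concerns the DREAM complex, and the comparison asks how transcripts after mutation of the E2F genes differ from those after mutation of BTE1 together with BTL1.

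E2F transcription factors bind DNA with a DP partner and control genes of DNA replication and cell division. In Arabidopsis E2FA and E2FB are usually described as activators and E2FC as a repressor, the retinoblastoma protein RBR1 holds E2Fs in check, and the DEL proteins bind E2F sites without DP. In the DREAM complex, E2F and DP proteins, RBR1, MYB3R factors, CXC-domain proteins of the TSO1 type, ALWAYS EARLY proteins and MSI1 sit together on cell cycle genes and keep many of them low outside their phase.

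Of the 3 genes that the e2f label names, E2FA and E2FC were higher and E2FB was lower in the libraries that carry it. E2FA was at 27.5, 28.9 and 37.4 CPM (read counts scaled to TMM-adjusted library size) in e2f, against 16.4, 16.9 and 17.65 CPM in bte1 btl1, 9.44 to 10.7 CPM in btl1 and 8.65 to 9.04 CPM in WT. E2FC was at 41.6, 49.0 and 51.9 CPM in e2f, against 14.4, 13.7 and 15.2 CPM in bte1 btl1, 9.26 to 11.0 CPM in btl1 and 10.6 to 12.3 CPM in WT. E2FB was at 5.26, 6.43 and 4.92 CPM in e2f, against 8.58, 7.08 and 8.56 CPM in bte1 btl1, 6.38 to 7.41 CPM in btl1 and 5.85 to 7.35 CPM in WT. For each of these genes the e2f and bte1 btl1 libraries did not overlap, which held for 54.6% of all genes tested. A count over a whole gene does not check a genotype whose allele is not known, so the triple mutant is called by its label throughout and every direction below is that of the libraries labelled e2f. BTE1 and BTL1 are names that the reference annotation does not use, and they were not analysed here.

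Total counted reads ran from 21270487 to 21885875 in e2f and from 14309396 to 15424866 in bte1 btl1. The biological coefficient of variation, the relative spread between replicates beyond counting error, was 0.165 in e2f, 0.0906 in bte1 btl1, 0.0675 in btl1 and 0.0944 in WT, so the e2f libraries varied most. In this comparison WT was treated as part of another set of libraries than e2f, bte1 btl1 and btl1. The sample titles and column headers name no set. Total counted reads ran from 22544462 to 23912716 in WT and from 15092335 to 15227469 in btl1. By these totals e2f lay nearer to WT, and btl1 nearer to bte1 btl1. Whether e2f and bte1 btl1 were sequenced together is not stated. If they were not, a difference of sequencing run could not be told apart from genotype. The photosynthesis list, used as the mark of green tissue, had all 23 members with reads and summed to 43270 to 53770 CPM in e2f and 88010 to 89860 CPM in bte1 btl1. The 14 root markers summed to 179 to 228.7 CPM in e2f and 170.2 to 191.6 CPM in bte1 btl1, where AT3G50990 had no read. The 10 shoot meristem markers summed to 61.1 to 74.1 CPM in e2f and 63.5 to 83.8 CPM in bte1 btl1, with WUS and CLV3 at 2 reads or fewer. The 14 floral and pollen markers summed to 27.2 to 31.6 CPM in e2f and 11.3 to 13.1 CPM in bte1 btl1, with no read for 4 of them in e2f and for 3 in bte1 btl1. The 15 seed maturation markers summed to 7.41, 151 and 58.1 CPM in e2f and to 2.09, 13.8 and 92.0 CPM in bte1 btl1, and thus varied more between replicates than between genotypes. The part of these tissue markers in the results was not tested. In RNA of whole seedlings, fewer cells of a type and less RNA per cell cannot be told apart.

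Of 20770 genes tested, 8763 (42.2%) differed between e2f and bte1 btl1 at an adjusted p under 0.05, which is the meaning of "called" below. In e2f 4535 (21.8%) were higher and 4228 (20.4%) were lower, and the median log2 change over all genes tested was 0.0004. Counts of called list members below are to be read against these shares. At least 2-fold changes were called for 1493 genes higher and 1218 lower, and at least 8-fold changes for 166 higher and 46 lower, so the large differences lay mostly on the high side. For 11345 genes (54.6%) every library of one genotype lay above every library of the other. Statements below that all libraries of one genotype lie above or below those of the other are to be read against that share. In data simulated at this depth, with the same spread for both genotypes, 67, 67 and 66 of 20770 genes were changed 1.5-fold, 2-fold and 4-fold. Of these 34.3%, 71.6% and 98.5% were called, and 9.33% of the calls were unchanged genes, which is above the intended 5%. Far fewer genes were changed there than the 42.2% called here, so these shares do not carry over to the calls above. 

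**Figure D1:**
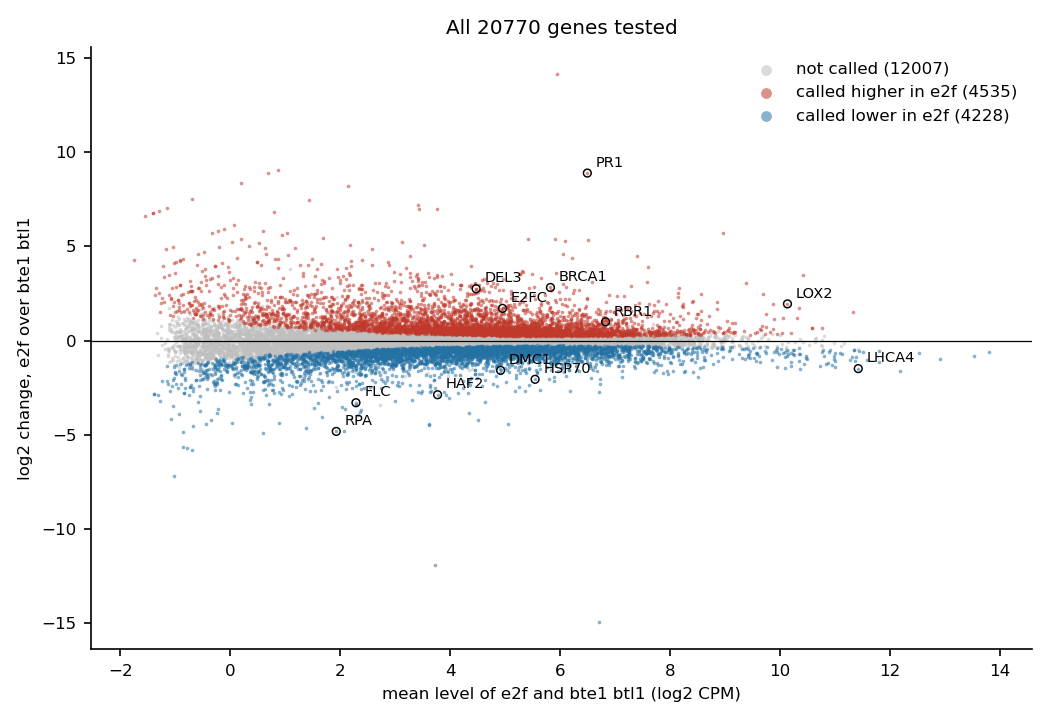
Log2 change of e2f over bte1 btl1 for the 20770 genes tested (y axis) against the mean level of both genotypes in log2 CPM (x axis), with genes called higher in e2f in red, called lower in blue and not called in grey, and named genes circled. PR1 lies at 8.89 and RPA at -4.81, and the called genes fall on both sides at every level.

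Most genes of the E2F family were higher in e2f, and of the mutated ones E2FA and E2FC were higher and E2FB lower. Of the 9 E2F, DP, DEL and RBR1 genes, all tested, 6 were higher and 1 lower (median log2 change 0.71, against 0.0004 over all genes). E2FC had a log2 change of 1.72 (SE 0.12, adjusted p = 1.11e-06) and E2FA of 0.87 (SE 0.13, adjusted p = 0.00035). E2FB was the lower gene, at -0.55 (SE 0.17, adjusted p = 0.0236). That call was lost without e2f replicate 3, without bte1 btl1 replicate 1 and without bte1 btl1 replicate 3, where the adjusted p ran from 0.0505 to 0.0891.

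Other members of the family were higher too. DEL3, an atypical E2F, had 38.3, 42.8 and 35.01 CPM in e2f and 5.55, 5.38 and 6.13 CPM in bte1 btl1, with a log2 change of 2.76 (SE 0.13, adjusted p = 8.86e-08). RBR1 had 154, 149 and 151 CPM in e2f and 76.9, 70.9 and 78.4 CPM in bte1 btl1, a log2 change of 1.00 (SE 0.09, adjusted p = 1.1e-05). Its e2f libraries differed among themselves by little against the distance to bte1 btl1, and btl1 (52.5 to 54.5 CPM) and WT (53.9 to 54.3 CPM) were lower still. DEL1, which holds cells back from the endocycle, was higher by 0.71, and the DP partner DPA by 0.52. DPB and DEL2 were not called, at 0.09 (SE 0.13) and 0.24 (SE 0.25). Per length, the highest of these genes in e2f was RBR1 at 38.5 FPKM (SD 0.67, n = 3), followed by E2FC at 26.4 FPKM (SD 3.2) and DEL3 at 25.8 FPKM (SD 3.09), which lay within their SDs of each other, while E2FB was at 2.26 FPKM (SD 0.36).

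Among the 13 other DREAM subunits 7 were higher by edgeR and 5 by DESeq2, which did not call ALY1 (adjusted p = 0.0608) and MYB3R1 (0.0731). None was lower by either, the median was 0.28, and 1 (MYB3R3) was lower at an unadjusted p under 0.05. SOL1, a CXC-domain protein, had 50.9, 65.4 and 54.7 CPM in e2f and 11.4, 10.8 and 12.97 CPM in bte1 btl1, a log2 change of 2.27 (SE 0.13, adjusted p = 3.13e-07). Its e2f libraries stood apart from the 9 libraries of bte1 btl1, btl1 (9.77 to 10.9 CPM) and WT (9.28 to 12.7 CPM), which lay together. ALY3 (0.86), MYB3R4 (0.50) and the CXC-domain genes AT4G29000 (0.76) and AT3G16160 (1.89) were higher too. ALY1 (0.38) and MYB3R1 (0.28) were called higher, but ALY1 lost the call without any 1 of bte1 btl1 replicates 1 to 3 or e2f replicates 2 and 3 (adjusted p 0.0626 to 0.137), and MYB3R1 without any bte1 btl1 replicate or e2f replicate 2 (0.0713 to 0.144). MYB3R3 (-0.39, SE 0.17), MYB3R5 (-0.42, SE 0.21), ALY2 (0.06), TSO1 (0.15), MSI1 (0.25) and AT2G20110 (0.26) were not called. Without e2f replicate 2, MYB3R3 passed as lower (adjusted p = 0.0469).

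**Figure D2:**
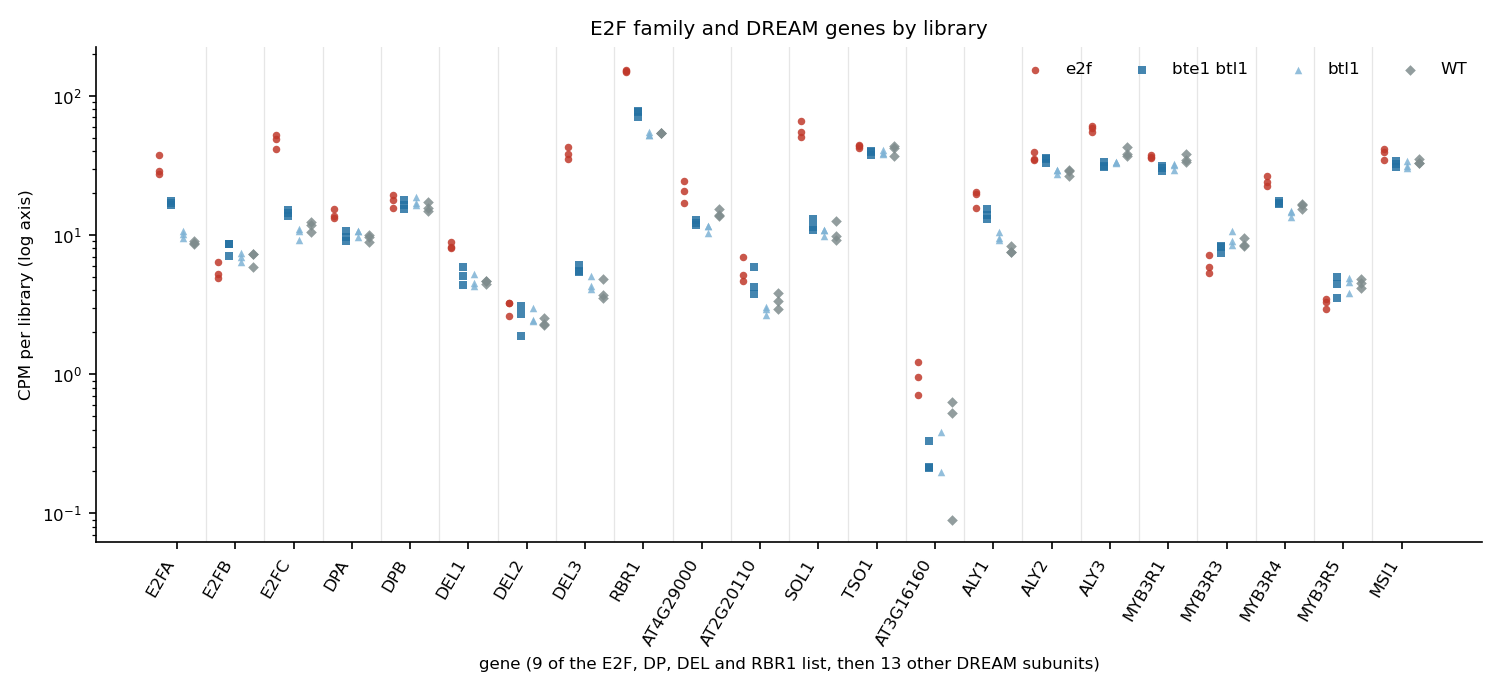
CPM in every library (log axis) of the 9 E2F, DP, DEL and RBR1 genes and the 13 other DREAM subunits, with e2f, bte1 btl1, btl1 and WT side by side for each gene. E2FC, DEL3, RBR1 and SOL1 stand higher in the 3 e2f libraries than in all others, and E2FB stands lower than in bte1 btl1. AT3G16160 had no read in btl1 replicate 2, which has no point.

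Promoters were searched for E2F sites, since E2F factors act through such letters. The window ran from 250 bases before to 50 bases after the gene start of the RefSeq annotation of TAIR10.1, which matched 28932 of the 33612 features by locus, and the motifs were TTTCCCGC, TTTGGCGC, TTTCGCGC and TTTGCCGC on either strand. Of 20492 promoters of genes tested, 390 (1.9%) held such a motif. The share was 3.05% (137 of 4496) for genes called higher in e2f, 4.07% (60 of 1474) for those at least 2-fold higher, 1.71% (71 of 4163) for those called lower and 1.54% (182 of 11833) for those not called. The CHR motif TTTGAA, an element of mitotic promoters, was in 43.8% of promoters of all genes tested. Its share was 44.9% for genes called higher and 43.8% for those called lower. It was 47% for those at least 2-fold higher and 42.7% for those at least 2-fold lower. A match describes letters in a window, and the lack of one says nothing about the factor.

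The following are promoters of 5 genes higher in e2f (RBR1, ORC4, FAS1, BRCA1 and CMT3) and of 2 genes lower in e2f (MCM4 and ZYP1a), which hold the same kind of motif while the transcripts differ in opposite directions. They are from RefSeq TAIR10.1, 300 bases each, written 5′ to 3′ on the strand of the gene, with E2F motifs of either strand in capitals.
RBR1 (chr3:3919310-3919609, minus strand): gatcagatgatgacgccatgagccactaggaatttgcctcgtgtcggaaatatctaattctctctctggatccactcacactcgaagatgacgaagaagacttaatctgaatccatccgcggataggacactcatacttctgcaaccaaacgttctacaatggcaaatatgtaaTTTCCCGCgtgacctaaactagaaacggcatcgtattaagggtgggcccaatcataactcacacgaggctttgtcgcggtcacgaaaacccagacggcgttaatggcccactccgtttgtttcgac
ORC4 (chr2:85151-85450, plus strand): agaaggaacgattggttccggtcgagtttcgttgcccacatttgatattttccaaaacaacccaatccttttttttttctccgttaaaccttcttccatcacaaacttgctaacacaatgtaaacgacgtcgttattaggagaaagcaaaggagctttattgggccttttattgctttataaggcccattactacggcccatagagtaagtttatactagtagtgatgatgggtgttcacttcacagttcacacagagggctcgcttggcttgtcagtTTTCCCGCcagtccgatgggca
FAS1 (chr1:24324042-24324341, minus strand): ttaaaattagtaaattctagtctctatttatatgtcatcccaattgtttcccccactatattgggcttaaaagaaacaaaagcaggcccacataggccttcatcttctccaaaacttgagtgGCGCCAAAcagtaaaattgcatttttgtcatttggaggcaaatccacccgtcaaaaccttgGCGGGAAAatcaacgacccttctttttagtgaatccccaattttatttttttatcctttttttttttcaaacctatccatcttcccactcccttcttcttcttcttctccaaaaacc
BRCA1 (chr4:11247741-11248040, plus strand): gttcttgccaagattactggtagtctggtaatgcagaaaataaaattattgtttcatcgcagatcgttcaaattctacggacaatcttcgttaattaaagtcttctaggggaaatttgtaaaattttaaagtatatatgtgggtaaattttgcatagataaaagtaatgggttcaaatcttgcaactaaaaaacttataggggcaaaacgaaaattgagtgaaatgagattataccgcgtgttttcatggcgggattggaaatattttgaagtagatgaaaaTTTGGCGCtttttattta
CMT3 (chr1:26253638-26253937, minus strand): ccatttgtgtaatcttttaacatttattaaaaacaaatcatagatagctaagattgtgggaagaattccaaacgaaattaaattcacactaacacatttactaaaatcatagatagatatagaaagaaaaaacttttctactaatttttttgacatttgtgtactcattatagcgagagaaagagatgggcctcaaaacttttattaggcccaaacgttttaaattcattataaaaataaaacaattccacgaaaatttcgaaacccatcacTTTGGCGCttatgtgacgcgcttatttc
MCM4 (chr2:7130680-7130979, minus strand): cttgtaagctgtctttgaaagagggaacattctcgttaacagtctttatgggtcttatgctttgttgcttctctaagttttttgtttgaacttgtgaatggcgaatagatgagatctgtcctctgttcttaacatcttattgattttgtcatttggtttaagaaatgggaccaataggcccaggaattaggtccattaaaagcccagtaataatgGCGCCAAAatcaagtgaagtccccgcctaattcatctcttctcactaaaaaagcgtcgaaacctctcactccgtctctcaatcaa
ZYP1a (chr1:7865214-7865513, minus strand): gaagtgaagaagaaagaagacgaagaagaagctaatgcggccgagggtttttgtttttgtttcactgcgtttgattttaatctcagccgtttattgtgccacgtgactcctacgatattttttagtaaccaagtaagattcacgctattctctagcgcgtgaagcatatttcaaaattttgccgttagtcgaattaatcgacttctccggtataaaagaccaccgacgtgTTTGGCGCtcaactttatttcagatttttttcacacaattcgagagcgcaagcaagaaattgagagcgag
The FAS1 window held 2 matches and the others 1 each.

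Genes that prepare and fire replication origins were higher in e2f in the main. Of 22 licensing and origin genes, all tested, 14 were higher and 2 lower, with a median log2 change of 0.78, and 11 of the 22 promoters held an E2F motif. ORC4, an origin recognition subunit, had 39.1, 42.4 and 40.3 CPM in e2f and 11.4, 13.8 and 11.99 CPM in bte1 btl1, a log2 change of 1.71 (SE 0.11, adjusted p = 9.26e-07). MCM10, which acts when origins fire, had 27.9, 29.1 and 32.8 CPM in e2f and 9.16, 6.87 and 6.98 CPM in bte1 btl1 (log2 change 1.96, SE 0.14). CDC6, the loader of the replicative helicase, had 31.7, 32.1 and 28.5 CPM in e2f and 10.1, 7.64 and 7.64 CPM in bte1 btl1 (1.86, SE 0.14). For these genes all e2f libraries were higher than all bte1 btl1 libraries, and btl1 and WT stood lower than both, at 3.39 to 9.45 CPM. ORC1B (1.55), ORC6 (1.88) and MCM9 (1.12) were higher as well. Here and below, list members beyond the 3 with the smallest adjusted p were chosen for mention after their values had been seen.

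The helicase subunits did not move as one. MCM7 was higher by 1.08, MCM2 by 0.64 and MCM3 by 0.53, while MCM5 (0.02, SE 0.10) and MCM6 (-0.20, SE 0.15) were not called. MCM4 was lower, with 21.0, 21.5 and 24.3 CPM in e2f and 34.1, 30.4 and 35.1 CPM in bte1 btl1, a log2 change of -0.58 (SE 0.11, adjusted p = 0.00147). In btl1 it was at 20.0 to 22.7 CPM and in WT at 19.7 to 23.1 CPM, which overlaps e2f, so bte1 btl1 was the genotype apart. CDT1A, another licensing factor, was the second lower member (-0.38). It was at 20.6 CPM in e2f (mean), 26.7 in bte1 btl1 and 14.3 to 14.9 in WT and btl1. Its call was lost without any bte1 btl1 replicate and without e2f replicate 1 (adjusted p 0.0532 to 0.128).

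At the replication fork 16 of 20 genes were higher and 1 lower, with a median of 0.73. RPA1E, a single-strand DNA binding subunit, had 34.2, 30.3 and 31.3 CPM in e2f and 3.60, 4.6 and 4.22 CPM in bte1 btl1, a log2 change of 2.94 (SE 0.14, adjusted p = 8.57e-08). FAS1, a subunit of chromatin assembly factor 1, had 67.5, 71.5 and 58.3 CPM in e2f and 18.3, 18.2 and 16.4 CPM in bte1 btl1 (1.89, SE 0.11). The catalytic subunit of DNA polymerase delta, AT5G63960, had 79.9 to 89.2 CPM in e2f and 28.6 to 31.6 CPM in bte1 btl1 (1.5, SE 0.10). TSO2, a ribonucleotide reductase subunit that supplies DNA precursors, reached 553, 417 and 427 CPM in e2f and 148, 115 and 122 CPM in bte1 btl1 (1.86). TIL2, a catalytic subunit of DNA polymerase epsilon, was near 0 in btl1 and WT. It had 42.3, 49.0 and 47.0 CPM in e2f, 14.5, 14.6 and 17.39 CPM in bte1 btl1, 0.07 to 0.27 CPM in btl1 and 0 to 0.08 CPM in WT. The lower member was PCNA1, the sliding clamp (-0.30, adjusted p = 0.0463), and its call was lost without any 1 of the 6 libraries (adjusted p 0.055 to 0.161). The second clamp gene PCNA2 and the ligase LIG1 were not called, at 0.19 (SE 0.11) and 0.22 (SE 0.10).

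Replicative histones, made in step with DNA, were split. Of 20 genes 7 were higher and 4 lower (55% called, against 42.2% of all genes), and the median was 0.15. HTA13 was higher by 0.85 and the H3.1 gene AT5G65360 by 0.70, while the H2A gene HTA12 was lower by 1.23 on the log2 scale, with 3.84, 4.91 and 5.10 CPM in e2f against 9.95, 9.77 and 12.7 CPM in bte1 btl1. The copies of a histone class are near identical, and how reads were shared between them is not stated. Without bte1 btl1 replicate 3 there were 4 higher members, and without bte1 btl1 replicate 2 there were 2 lower ones.

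Genes of mitosis and cytokinesis were higher to a smaller extent. Of 31 genes 17 were higher and 1 lower, with a median of 0.41. The A2-type cyclins led: CYCA2;4 had 31.0, 38.2 and 42.6 CPM in e2f and 10.6, 9.98 and 9.81 CPM in bte1 btl1 (1.87, SE 0.14, adjusted p = 1.78e-06), and CYCA2;2 had 14.9 to 21.0 CPM and 4.76 to 5.99 CPM (1.76, SE 0.17). The mitotic kinase CDKB1;1 was higher by 1.33 and its relative CDKB1;2 by 0.51, whereas CDKB2;1 (0.14, SE 0.13) and CDKB2;2 (-0.06, SE 0.11) were not called. Of the Aurora kinases AUR3 (1.81) and AUR1 (1.14) were higher and AUR2 was not called (0.18, SE 0.13). The lower member was the cyclin CYCA1;1 (-0.45), whose call was lost without any bte1 btl1 replicate and without e2f replicates 2 or 3 (adjusted p 0.0698 to 0.126). None of the 31 promoters held an E2F motif as searched.

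Few G1 genes were called, while genes that stop the cycle were called in both directions. Of 12 G1 cyclins and their kinase, 2 were higher and 1 lower (25% called, against 42.2% of all genes). CYCD2;1 (0.44), CYCD4;1 (0.65) and CYCD1;1 (-0.73) were the called ones, and each lost its call without bte1 btl1 replicate 3 (adjusted p 0.0671, 0.0552 and 0.0677). CYCD2;1 also lost it without bte1 btl1 replicate 2 (0.0583), CYCD1;1 without e2f replicate 1 (0.0502), and CYCD4;1 without any library but e2f replicate 3 (0.0552 to 0.151). Without e2f replicate 1 there were 3 lower members, and without e2f replicate 3 there were 2. CYCD3;1 and CDKA;1 were at 0.01 (SE 0.16) and -0.03 (SE 0.10). Among 15 inhibitors and endocycle genes 6 were higher and 4 lower (66.7% called). The CDK inhibitors KRP6 (1.25) and KRP3 (1.33) were higher, and KRP1 (-0.51) and KRP2 (-0.53) were lower. KRP1 had an adjusted p of 0.0505 without bte1 btl1 replicate 1. CCS52A2, an activator of the anaphase ubiquitin ligase in endocycling cells, was lower by 1.33 on the log2 scale, with 1.65, 3.03 and 2.89 CPM in e2f against 3.89, 8.07 and 7.05 CPM in bte1 btl1. SMR4, a plant CDK inhibitor, was high in both genotypes, with 5.98 to 6.86 CPM in e2f and 3.56 to 3.96 CPM in bte1 btl1 (0.77, SE 0.17), against 0.57 to 0.73 CPM in btl1 and 0.04 to 0.25 CPM in WT.

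Genes of the DNA damage response showed the largest median of the cell cycle lists. Of 18 genes 16 were higher in e2f and 1 was lower, and the median log2 change was 1.63. BRCA1, a repair ubiquitin ligase subunit, had 102, 99.4 and 96.8 CPM in e2f and 13.7, 15 and 13.2 CPM in bte1 btl1, a log2 change of 2.82 (SE 0.10, adjusted p = 3.14e-08). GMI1, a repair protein induced by gamma rays, had 70.1, 72.7 and 82.1 CPM in e2f and 11.3, 12.2 and 9.29 CPM in bte1 btl1 (2.77, SE 0.13). NAC044, a transcription factor that arrests the cycle after damage, had 27.4, 26.7 and 26.8 CPM in e2f and 4.18, 4.6 and 3.62 CPM in bte1 btl1 (2.70, SE 0.14). The replicates of a genotype lay close together for all these genes. For NAC044 (0.48 to 2.56 CPM) and BRCA1 (6.51 to 10.2 CPM) btl1 and WT stood below bte1 btl1. For GMI1 the WT libraries, at 7.48 to 10.6 CPM, overlapped those of bte1 btl1. SMR7, a CDK inhibitor of the damage response, had 13.9, 13.4 and 14.6 CPM in e2f and 0.79, 1.42 and 0.40 CPM in bte1 btl1 (4.01, SE 0.28). The regulator SOG1 was higher by 1.13 and the kinase ATR by 1.02. The kinase ATM was the lower member (-0.42), with an adjusted p of 0.062 without bte1 btl1 replicate 3, and the checkpoint kinase WEE1 was not called (-0.25, SE 0.16).

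Meiotic genes were split between the genotypes. Of 16 tested 7 were higher and 4 lower in e2f (68.8% called, against 42.2% of all genes). MSH5, which acts in crossovers, had 22.5, 26.3 and 27.1 CPM in e2f and 5.55, 5.59 and 7.38 CPM in bte1 btl1 (2.03, SE 0.15), and AHP2, a recombination cofactor, was higher by 2.06. ASY1, a protein of the chromosome axis, had 4.62, 3.57 and 5.59 CPM in e2f and 0.36, 0.71 and 0.20 CPM in bte1 btl1. DMC1, the meiotic recombinase, went the other way, with 14.95, 17.3 and 13.4 CPM in e2f and 43.6, 48.7 and 43.3 CPM in bte1 btl1 (-1.57, SE 0.12, adjusted p = 2.28e-06). ZYP1b, of the synaptonemal complex, had 2.24, 2.81 and 2.12 CPM in e2f and 6.99, 7.79 and 8.496 CPM in bte1 btl1 (-1.70, SE 0.19). Its neighbour ZYP1a, a near-identical copy, had 3.75, 6.78 and 4.96 CPM in e2f and 11.3, 10.8 and 12.1 CPM in bte1 btl1 (-1.15, SE 0.20). For all 3 of these genes bte1 btl1 stood above e2f, btl1 and WT.

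**Figure D3:**
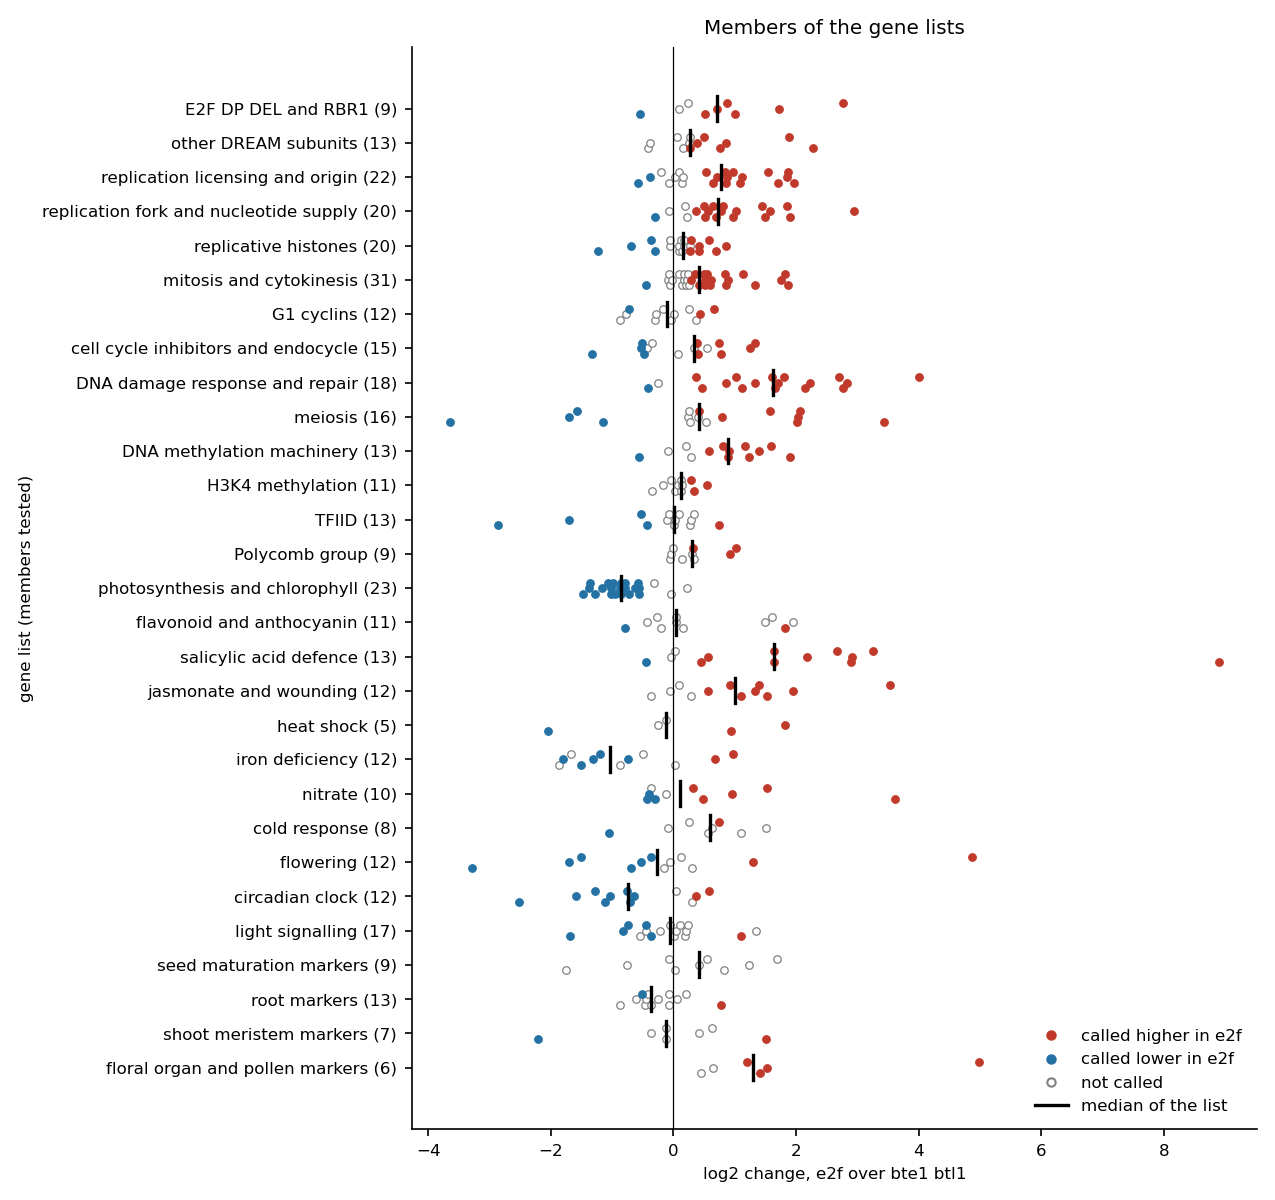
Log2 change of e2f over bte1 btl1 (x axis) for the tested members of each gene list, with members called higher in red, called lower in blue, not called open, and the median of the list as a bar. The medians run from -1.04 for iron deficiency to 1.64 for salicylic acid defence, and the photosynthesis members lie to the left.

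The machinery of DNA methylation was higher in e2f. Of 13 genes 9 were higher and 1 lower, with a median of 0.89. CMT3, the CHG methyltransferase, had 171, 190.3 and 152 CPM in e2f and 56.4, 57.4 and 56.4 CPM in bte1 btl1 (1.59, SE 0.11, adjusted p = 1.16e-06). MET1, which maintains CG methylation, had 146, 145 and 136 CPM in e2f and 80.3, 74.0 and 75.8 CPM in bte1 btl1 (0.89, SE 0.09). ROS1, a demethylase, had 116, 124 and 121 CPM in e2f and 25.7, 31.6 and 38.5 CPM in bte1 btl1 (1.91, SE 0.13), and in its case btl1 (41.7 to 46.9 CPM) and WT (44.2 to 46.8 CPM) lay between the double and the triple mutant. The list thus held genes that add and genes that remove methylation. The remodeller DDM1 was higher by 1.23, and the histone methyltransferase SUVH6 was lower by 0.56 on the log2 scale.

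Other chromatin lists differed little. Of 11 genes of H3K4 methylation 3 were higher and none lower by edgeR, by DESeq2 or at an unadjusted p under 0.05, and the share called (27.3%) is below the 42.2% of all genes. ATX4 (0.55) was higher, and ATX1 (0.34) and ATXR3 (0.28) lost their calls without bte1 btl1 replicate 1 (adjusted p 0.117 for each) and without bte1 btl1 replicate 2 (0.0865 and 0.127). ATXR3 also lost it without e2f replicate 1 (0.0605) or 2 (0.0751). WDR5A, a core subunit of H3K4 methyltransferase complexes that the series title names, was at 4.44, 2.54 and 3.25 CPM in e2f and 5.77, 3.47 and 3.75 CPM in bte1 btl1 and was not called (-0.35, SE 0.27). Of 9 tested Polycomb genes 3 were higher by edgeR and 2 by DESeq2, which did not call VRN2 (adjusted p = 0.0638), and none was lower by either or at an unadjusted p under 0.05. The Polycomb share called by edgeR (33.3%) is below that of all genes too. CLF, an H3K27 methyltransferase, was higher by 1.02 and RING1B by 0.93, whereas the CLF relative SWN was not called (-0.01, SE 0.10). VRN2 (0.32) lost its call without bte1 btl1 replicates 2 or 3 (0.135 and 0.164) and without e2f replicate 2 (0.111). There were 5 higher Polycomb members without e2f replicate 1.

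**Figure D4:**
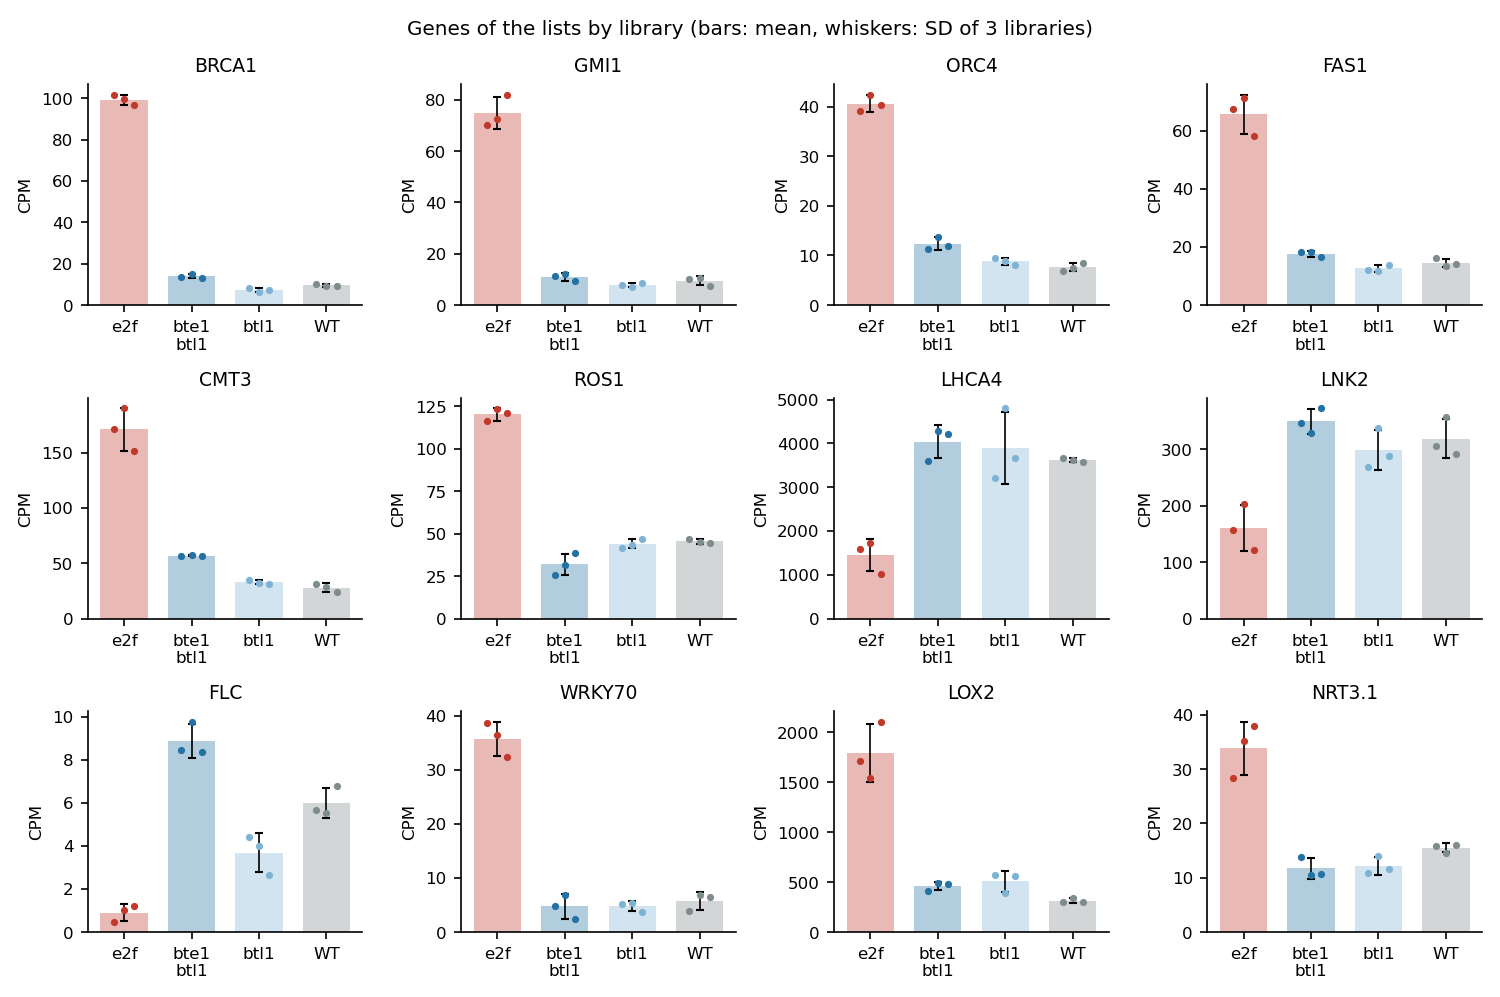
CPM of 12 genes in e2f, bte1 btl1, btl1 and WT, with points for libraries, bars for means and whiskers for the SD of 3 libraries. BRCA1, ORC4, FAS1, CMT3, WRKY70 and LOX2 are highest in e2f, LHCA4 and LNK2 are lowest in e2f, and FLC ranges from 0.46 to 1.22 CPM in e2f against 8.36 to 9.77 CPM in bte1 btl1.

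Genes of photosynthesis were lower in e2f as a body. Of 23 genes 20 were lower and none was higher by edgeR, by DESeq2 or at an unadjusted p under 0.05, with a median log2 change of -0.86. LHCA4, an antenna protein of photosystem I, had 1594, 1729 and 1028 CPM in e2f and 3600, 4291 and 4221 CPM in bte1 btl1, a log2 change of -1.48 (SE 0.19, adjusted p = 0.000124). PSBP-1, of the oxygen-evolving complex, had 1867, 1770 and 1454 CPM in e2f and 3675, 3560 and 3467 CPM in bte1 btl1 (-1.08, SE 0.14), and LHCA2 was lower by 1.02 on the log2 scale. All e2f libraries lay below all bte1 btl1 libraries for these genes, and btl1 and WT were near bte1 btl1. The 3 members not called were the chlorophyll synthesis genes HEMA1 (-0.03, SE 0.15), PORB (0.22, SE 0.14) and PORC (-0.32, SE 0.14). Of 45 tested plastid-encoded genes, which are outside this list, 11 (24.4%) were lower and 0 higher, against 20.4% and 21.8% of all genes. Their median log2 change was -1.07, with a range from -3.32 to 0.19. Poly(A) selection limits what plastid counts mean.

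Most clock genes were lower in e2f. Of 12 clock genes 8 were lower and 2 higher, with a median of -0.74. PRR9, a repressor that peaks in the morning, had 3.34, 1.87 and 0.77 CPM in e2f and 11.0, 11.8 and 11.3 CPM in bte1 btl1 (-2.52, SE 0.39, adjusted p = 0.00124), and its log2 change was -3.11 without e2f replicate 1. LNK2, a coactivator of clock genes, had 158, 203 and 122 CPM in e2f and 347, 329 and 373 CPM in bte1 btl1 (-1.12, SE 0.16). CCA1, a core morning factor, had 73.2, 86.7 and 39.5 CPM in e2f and 179, 141 and 163 CPM in bte1 btl1 (-1.28, SE 0.28). TOC1, the evening repressor, was higher by 0.58, with 87.0, 93.1 and 114 CPM in e2f and 64.0, 67.2 and 65.1 CPM in bte1 btl1. ELF4 (-1.04) and PRR7 (-0.72) were lower and LUX was not called (0.04, SE 0.16), so genes of the morning and of the evening were both among the lower ones. ELF3 was higher by 0.37, a call lost without bte1 btl1 replicate 3 (adjusted p = 0.0526). The labels give no hour of harvest.

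In light signalling 1 of 17 genes was higher and 5 were lower (35.3% called, against 42.2% of all genes). PIF3, a phytochrome-interacting factor, was higher by 1.1 (SE 0.10, adjusted p = 9.33e-06), whereas its relatives PIF7 (-0.75) and PIF4 (-0.83) were lower. PIF4 had an adjusted p of 0.0597 without e2f replicate 3. HFR1, a shade-response factor, was at 1.40 to 2.52 CPM in e2f and 3.89 to 8.17 CPM in bte1 btl1 (-1.69, SE 0.30). The count of lower members was 3 without bte1 btl1 replicate 2 or 3, and that of higher members was 2 without bte1 btl1 replicate 2. BBX30 and BBX31, B-box factors of light responses, were among the genes with the lowest log2 changes of all (-4.36 and -2.93), BBX30 at 0.14 to 0.18 CPM in e2f and 2.90 to 4.11 CPM in bte1 btl1.

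Defence genes of the salicylic acid pathway were higher in e2f. Of 13 tested 10 were higher and 1 lower, with a median of 1.64. WRKY70, a regulator of the pathway, had 38.6, 36.4 and 32.4 CPM in e2f and 4.90, 6.94 and 2.37 CPM in bte1 btl1 (2.92, SE 0.30, adjusted p = 0.000182). PAD4, a defence regulator, was the lower member (-0.45), with an adjusted p of 0.0564 without bte1 btl1 replicate 1. SARD1 and CBP60g, which switch on salicylic acid synthesis, were higher by 2.90 and 1.64, while the synthesis gene ICS1 was not called (0.02, SE 0.13). PR1, the pathway's marker, had the largest log2 change among the genes the naming rule selects, 8.89 (SE 1.64, adjusted p = 0.0149), with 65.8, 58.3 and 416 CPM in e2f and 0.14, 0.57 and 0.40 CPM in bte1 btl1. One library, e2f replicate 3, raised that size: without it the log2 change was 7.36 (adjusted p = 3.78e-11). The PR1 call was lost without bte1 btl1 replicates 2 or 3 (adjusted p 0.0651 and 0.0587).

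Jasmonate genes were higher as well, with 8 of 12 higher, none lower by edgeR or DESeq2 and a median of 1.01, and 1 (VSP2) was lower at an unadjusted p under 0.05. LOX2, a lipoxygenase that feeds jasmonate synthesis, had 1714, 1544 and 2105 CPM in e2f and 411, 491 and 478 CPM in bte1 btl1 (1.95, SE 0.15, adjusted p = 2.59e-06). The repressor JAZ5 was higher by 1.53 and LOX3 by 1.34, whereas MYC2, the pathway's main activator, was not called (-0.06, SE 0.17). Of 10 nitrate genes 5 were higher and 3 lower. The transporter NRT2.1 had 4.16, 3.61 and 6.14 CPM in e2f and 0.79, 0 and 0.33 CPM in bte1 btl1 (3.61, SE 0.57), a log2 change that was 4.72 without bte1 btl1 replicate 1. Its partner NRT3.1 was higher by 1.53. NRT1.8, which unloads nitrate from the xylem, was among the highest changes at 5.39, with 81.1 to 182 CPM in e2f and 1.63 to 3.82 CPM in bte1 btl1. Without bte1 btl1 replicate 3 the nitrate list had 3 higher and 1 lower, and without e2f replicate 1 the jasmonate list had 1 lower.

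Of 12 tested iron deficiency genes 5 were lower and 2 higher, with a median of -1.04. The regulator PYE was lower by 1.19 on the log2 scale and BHLH101 by 1.51, and the store protein FER1 was higher by 0.98. FER1 was at 164 to 209 CPM in e2f and 138 to 247 CPM in WT. In bte1 btl1 it was at 76.05 to 126.5 CPM and in btl1 at 49.9 to 84.8 CPM. The FER1 call was lost in the fit over 24 libraries (adjusted p = 0.0699). PYE was at 9.34 to 11.1 CPM in e2f and 11.6 to 14.7 CPM in WT. Its level was 16.1 to 32.7 CPM in bte1 btl1 and 21.6 to 33.0 CPM in btl1. BHLH101 varied among the other genotypes as well. It had 9.44 to 16.7 CPM in btl1 and 2.49 to 4.68 CPM in WT, against 1.22 to 3.16 CPM in e2f and 4.25 to 8.002 CPM in bte1 btl1. The lower count was 3 without bte1 btl1 replicate 1 or 3 or e2f replicate 2, and the higher count was 1 without bte1 btl1 replicate 2 or 3 or e2f replicate 1. In flavonoid synthesis 1 of 11 tested was higher (TT8, 1.82) and 1 lower (MYB12, -0.79), and DFR, with 43.2, 37.1 and 13.1 CPM in e2f and 13.3, 6.65 and 4.15 CPM in bte1 btl1, was not called (1.95, SE 0.65), its libraries being wide apart within a genotype. MYB12 lost its call without any bte1 btl1 replicate and without e2f replicates 2 or 3 (adjusted p 0.0698 to 0.157). In this list there were 4 higher members without bte1 btl1 replicate 1 or e2f replicate 3, and 2 lower ones without e2f replicate 1. Of 8 tested cold genes COR47 was higher (0.74) and GOLS3 lower (-1.05), and the GOLS3 call was lost without any 1 of the bte1 btl1 replicates (0.0563 to 0.0733). In that list 4 were higher without bte1 btl1 replicate 2 and 3 without e2f replicate 3. The shares called were 58.3% of iron, 18.2% of flavonoid and 25% of cold genes, against 42.2% of all genes.

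Several floral repressors were lower, and floral organ genes were higher. Of 12 tested flowering genes 6 were lower and 2 higher. FLC, which holds back flowering, had 0.46, 1.03 and 1.22 CPM in e2f and 8.43, 9.77 and 8.36 CPM in bte1 btl1 (-3.29, SE 0.28, adjusted p = 5.7e-06), with btl1 at 2.66 to 4.41 CPM and WT at 5.53 to 6.78 CPM. The related repressors MAF4 (-1.51), MAF3 (-0.53) and MAF1 (-0.37) were lower and MAF5 was higher (1.29), while MAF2 (-0.05, SE 0.11) and SVP (-0.15, SE 0.12) were not called. MAF1 lost its call without bte1 btl1 replicates 2 or 3 (0.0566 and 0.0517). FT, the mobile signal that promotes flowering, was lower too (-1.71), at 0.14 to 0.45 CPM in e2f and 0.85 to 1.59 CPM in bte1 btl1, with an adjusted p of 0.0852 without bte1 btl1 replicate 1. SEP3, a floral organ factor, had 24.5, 20.7 and 23.6 CPM in e2f and 7.86, 8.42 and 9.55 CPM in bte1 btl1 (1.41, SE 0.13, adjusted p = 1.17e-05). AP1 and AP3, floral organ factors, had 0.58 to 1.40 and 0.54 to 1.28 CPM in e2f and 1 read over the 3 bte1 btl1 libraries each, ratios of 39.5 (95% counting interval 6.81 to 1590) and 42.9 (7.42 to 1720). Their fitted log2 changes of 4.87 and 4.99 were 7.05 and 7.17 without bte1 btl1 replicate 3. Of 6 tested floral and pollen markers 4 were higher by edgeR and 2 by DESeq2, which did not call AG (adjusted p = 0.112) and PI (0.0679). None was lower by either or at an unadjusted p under 0.05. The higher count was also 2 without bte1 btl1 replicates 2 or 3.

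Markers of roots and of the shoot meristem showed few calls (15.4% and 28.6% of those tested, against 42.2% of all genes). Of 13 tested root markers PHT1;1, a phosphate transporter, was higher by 0.78 and GL2, a root hair regulator, was lower by 0.51 on the log2 scale, a call lost without bte1 btl1 replicate 3 (0.0729). The lower root count was 6 without e2f replicate 3 and 2 without e2f replicate 2, and the higher count was 2 without e2f replicate 1. Of 7 tested meristem markers CUC3, a boundary gene, was lower, at 0.40 to 0.45 CPM in e2f and 1.42 to 2.81 CPM in bte1 btl1 (-2.21, SE 0.38), and CUC1 was higher (1.51), a call lost without bte1 btl1 replicates 2 or 3 or e2f replicate 3 (0.07 to 0.0883). STM and CLV1 were not called (0.41, SE 0.23, and -0.13, SE 0.13). Of 9 tested seed maturation markers none was called by edgeR or DESeq2 and 0 had an unadjusted p under 0.05, and 1 at most was called in other settings.

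Beyond the lists, the highest log2 changes among called genes with a symbol were PR1, DL1D, NATA1, LTP4, BAM5, DXPS1, DRP4C, PRK6, CSLG2, PHI-1, AOX1D and NRT1.8. PHI-1, a phosphate-responsive cell wall protein, was the steadiest, with 75.4, 73.0 and 101 CPM in e2f and 1.80, 1.49 and 2.503 CPM in bte1 btl1 (5.41, SE 0.20, adjusted p = 4.53e-08). DL1D, a dynamin-like gene, had 4.85, 5.80 and 5.46 CPM in e2f and 1 read over the bte1 btl1 libraries, a ratio of 243 (95% counting interval 43.3 to 9630). Its fitted log2 change of 7.48 was 9.68 without bte1 btl1 replicate 2, the library with that read. BAM5, a beta-amylase, had 47.1, 11.96 and 21.97 CPM in e2f and 0.14 to 0.26 CPM in bte1 btl1, and its log2 change of 6.97 was 6.30 without e2f replicate 1. NATA1, an acetyltransferase, and LTP4, a lipid transfer protein, were spread widely over the e2f replicates, at 6.56 to 30.6 CPM and 5.44 to 36.9 CPM. Their log2 changes of 7.19 and 6.98 were 9.02 without bte1 btl1 replicate 2 and 8.97 without bte1 btl1 replicate 3. LTP4 was at 6.34 without e2f replicate 1, and it lost its call without bte1 btl1 replicate 2 or e2f replicate 3 (0.0657 and 0.058). Single libraries also moved the size for other genes. DXPS1 was at 6.84, and at 9.04 without bte1 btl1 replicate 2. DRP4C was at 6.11, and at 8.32 without bte1 btl1 replicate 1. PRK6 was at 8.13 without bte1 btl1 replicate 1 and at 5.20 without e2f replicate 3. CSLG2 was at 5.72, and at 6.62 without bte1 btl1 replicate 2. AOX1D was at 5.41, and at 4.81 without e2f replicate 3. Counting intervals and floors cover counting error only.

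For most called genes btl1 was nearer to bte1 btl1, and for a smaller group it was nearer to e2f. Among the 4535 genes higher in e2f the btl1 mean lay nearer to bte1 btl1 for 4223 (93.1%), against 77.5% of all genes tested. Among the 4228 lower genes it lay nearer to bte1 btl1 for 3724 and nearer to e2f for 504 (11.9%). Over all genes tested btl1 lay nearer to e2f for 22.5%. Called genes were picked for a distance between e2f and bte1 btl1, which most genes tested lack. The btl1 mutation is also shared by btl1 and bte1 btl1. Shares of called genes and of all genes are therefore not alike, and no conclusion is drawn from their difference. Of the 46 genes at least 8-fold lower in e2f, 19 (41.3%) had btl1 nearer to e2f, against 135 of 1218 (11.1%) of those at least 2-fold lower. These are levels on the log2(CPM + 0.5) scale, given as a description.

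The listed genes of that smaller group, lower in e2f, came from replication, histones, mitosis, meiosis, TFIID, heat shock, nitrate and light signalling. There were 20 of them, 4 of them subunits of TFIID, the complex that starts transcription at promoters. HAF2, a TAF1-type subunit of TFIID, had 3.38, 3.39 and 3.11 CPM in e2f and 25.7, 21.7 and 24.6 CPM in bte1 btl1, a log2 change of -2.87 (SE 0.14, adjusted p = 1.13e-07). The btl1 libraries were at 1.28 to 1.66 CPM and WT at 0.97 to 1.75 CPM, so HAF2 was highest in bte1 btl1, and e2f lay slightly above btl1 and WT. TAF4B had 3.02, 2.68 and 3.11 CPM in e2f and 7.50, 10.1 and 11.1 CPM in bte1 btl1 (-1.70, SE 0.19), with WT at 1.304 to 1.55 CPM. TBP2 (-0.53) and TAF2 (-0.42) were lower to a lesser degree, while HAF2's close relative TAF1 was not called (-0.07, SE 0.10). TAF12 was the member that was higher (0.74), and 3 members were higher without e2f replicate 1. Of 13 TFIID genes 38.5% were called in either direction, against 42.2% of all genes.

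Genes outside TFIID with this pattern included NUC-L2, HSP70 and RPA. NUC-L2, a nucleolin of ribosomal RNA genes, had 2.06, 1.52 and 2.48 CPM in e2f and 20.18, 17.7 and 15.5 CPM in bte1 btl1 (-3.14, SE 0.20, adjusted p = 6.76e-07), against 1.196 to 2.33 CPM in btl1. HSP70, the heat-inducible chaperone AT3G12580, had 17.8, 18.0 and 18.8 CPM in e2f and 73.7, 75.3 and 76.3 CPM in bte1 btl1 (-2.05, SE 0.09, adjusted p = 8.17e-08). In btl1 it was at 30.5 to 31.2 CPM and in WT at 15.7 to 18.9 CPM, so its level in btl1 lay above e2f and WT as well. Other heat shock genes did not share the pattern: HSP90.1 and HSP101 were not called (-0.25, SE 0.14, and -0.13, SE 0.16), and the factors HSFA7A (0.93) and HSFA2 (1.83) were higher in e2f. RPA, which here is the ARF-GAP gene AT2G35210 and no replication protein, had 0.27, 0.13 and 0.36 CPM in e2f and 6.92, 7.57 and 7.57 CPM in bte1 btl1 (-4.81, SE 0.30). The meiotic gene PHS1 had 0.09, 0.04 and 0.23 CPM in e2f and 1.87, 1.70 and 1.19 CPM in bte1 btl1 (-3.65, SE 0.51), and its log2 change was -4.41 without e2f replicate 3. HIL1, an entry of the count table that overlaps a pseudogene, was singled out after its values were seen. Reads of the overlapping pair may not be told apart. HIL1 had 2.29, 2.68 and 1.94 CPM in e2f and 8.43, 7.50 and 8.04 CPM in bte1 btl1 (-1.80, SE 0.19, adjusted p = 2.86e-05), against 0.53 to 0.86 CPM in btl1 and 0.71 to 0.88 CPM in WT. E2F motifs were in 3.82% (19 of 497) of promoters of called lower genes with btl1 nearer to e2f, and in 1.42% (52 of 3666) of the other called lower genes.

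**Figure D5:**
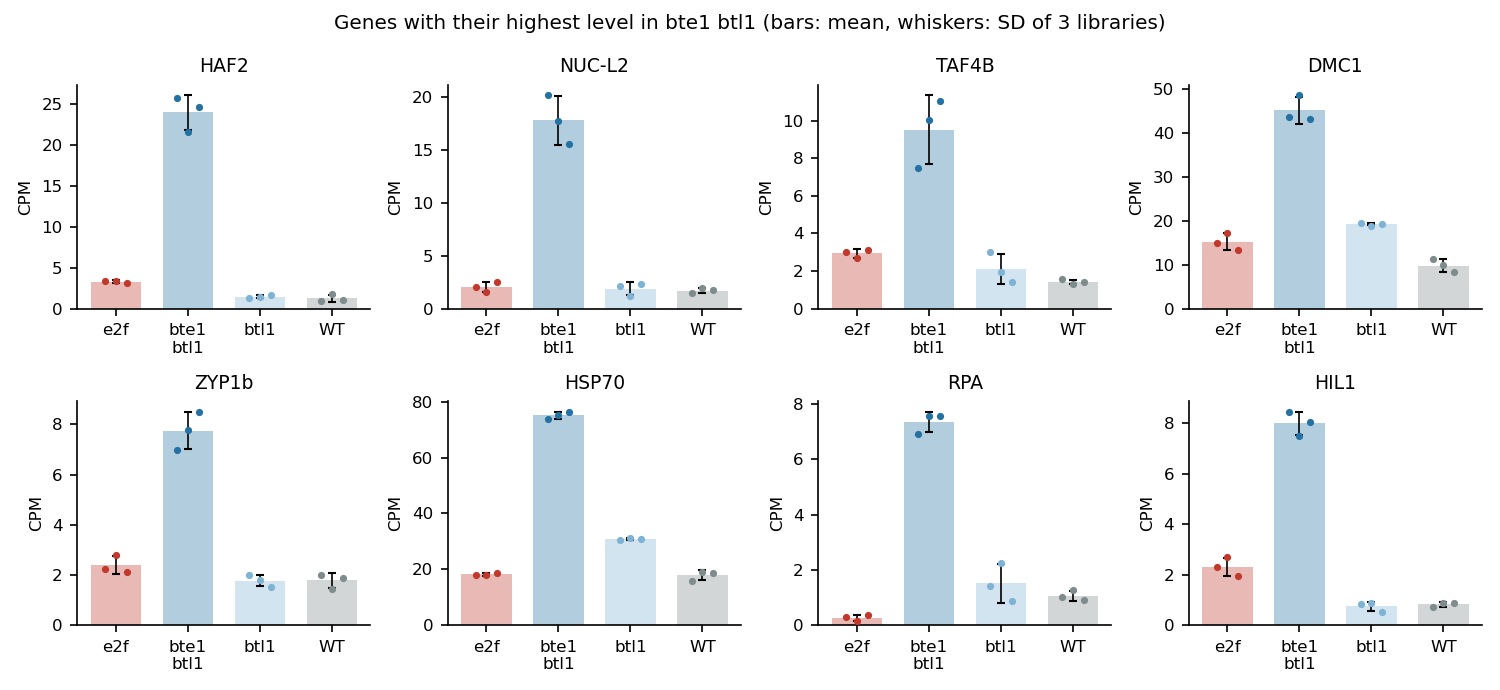
CPM of 8 genes in e2f, bte1 btl1, btl1 and WT, with points for libraries, bars for means and whiskers for the SD of 3 libraries. Each gene is highest in the 3 bte1 btl1 libraries, HAF2 at 21.7 to 25.7 CPM and HSP70 at 73.7 to 76.3 CPM, and e2f lies well below bte1 btl1 in every panel, above btl1 and WT for HAF2, ZYP1b and HIL1.

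The naming rule selected further genes with low log2 changes. THI2.2, a thionin, had 4.02, 3.66 and 0.45 CPM in e2f and 45.1, 29.9 and 39.1 CPM in bte1 btl1 (-3.81, SE 0.63), with btl1 at 34.4 to 45.8 CPM. The THI2.2 call was lost in the edgeR fit with a replicate block (adjusted p = 0.0548). RALFL27, a signalling peptide, had 0.13 to 0.32 CPM in e2f and 1.84 to 3.26 CPM in bte1 btl1 (-3.36), and AO4, an aldehyde oxidase, 0.05 to 0.13 and 1.19 to 1.37 CPM (-3.73). PAP14, a purple acid phosphatase (-4.19), had btl1 nearer to e2f, and its log2 change was -5.66 without e2f replicate 1 and -3.35 without bte1 btl1 replicate 2. CYP710A4, a sterol enzyme (-3), was at -2.27 without bte1 btl1 replicate 3. MGE1, a co-chaperone gene, was at 0.78 to 2.62 CPM in e2f and 12.7 to 15.4 CPM in bte1 btl1 (-3.21), and at -3.79 without e2f replicate 3. The strand used in counting is not stated, so reads of genes that overlap on opposite strands cannot be told apart. Among genes described here this holds for E2FA, RBR1, TSO1, MSI1, DEL1, MYB3R1, SOL1, AT4G29000, MYB3R5, ALY2, ORC4, ZYP1a, CDC6, MCM7, AT5G63960, PCNA2, HTA13, HTA12, CDKB1;1, CDKB1;2, CDKB2;1, CDKB2;2, AUR3, AUR1, AUR2, CYCD1;1, GMI1, ATR, AHP2, ASY1, SUVH6, CLF, RING1B, LHCA4, LNK2, FLC, PSBP-1, PORB, PORC, LUX, ELF3, PIF7, SARD1, MYC2, NRT1.8, BHLH101, FER1, GL2, DXPS1, TAF4B, TBP2, TAF1, TAF12, HSP101 and MGE1. TSO2, CCS52A2 and CYCD3;1 overlap another gene on the same strand.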

How the data were processed

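RNA of whole seedlings was measured by poly(A) RNA-seq in 24 libraries of 8 genotypes, 3 each, and genotype and replicate number came from the labels. The authors deposited raw read counts per gene and FPKM values, read counts per kilobase of transcript and sequencing depth, per the file headers. Per the submitters' processing notes, reads were handled with fastp, HISAT2 2.1.0 and SAMtools 1.6 on TAIR10. The counting tool, its strand setting and the treatment of reads with several matches are not given in the sources used here.

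The e2f and bte1 btl1 counts (6 libraries, 14309396 to 21885875 reads) were fitted with edgeR 4.0.16 (quasi-likelihood, TMM factors, robust) in R 4.3.3 after filterByExpr, which left 20770 of 33612 features. Calls are at a Benjamini-Hochberg adjusted p under 0.05 over all genes tested, and every adjusted p printed is from that test unless another setting is named. The SE is the log2 change divided by the square root of F. CPM used TMM factors over all 24 libraries. The count test was tried on simulated data. Where a genotype had no read, the fold is a limit computed with 3 reads set for its libraries together, and ratios with 1 to 3 reads carry exact 95% counting intervals. FPKM was used only to compare levels between genes. Reference names, products and promoters are from RefSeq TAIR10.1 (28932 features matched), and sequences were read from it.

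Named genes were all E2F, DP, DEL, RBR1 and DREAM members, the 12 highest and 12 lowest log2 changes among called genes that have a reference symbol, reach 1 CPM where they are higher and show no overlap of libraries, and up to 3 called members of each of 29 lists with the smallest adjusted p. The members and lists were chosen with earlier results of these data known. Other settings tried were DESeq2 1.42.0, RLE factors, all genes without the low-count filter, fits over 9 or 24 libraries, a replicate block, voom quality weights (limma 3.58.1) and leaving out each library.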

Additional observations from a re-analysis of the deposited data

How the results depend on the processing

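The 8763 calls became 8753 with RLE factors, 8799 without the low-count filter, 8259 with DESeq2, 9973 and 11187 in fits over 9 and 24 libraries, 10281 with voom quality weights and 6274 to 9334 with 1 library left out. Between 71.1% and 99.8% of the original calls were kept, and 0 changed direction. With the replicate block there were 9050 calls. In that fit the adjusted p was 0.0548 for THI2.2 and 0.0575 for CYCD4;1. Same-numbered libraries had correlations of 0.129, -0.0459 and 0.0902, and differently numbered ones ran from -0.126 to 0.0527. With 3 libraries per genotype these values do not settle whether the numbers pair the samples. The main fit treated the libraries as unpaired. The share of called lower genes with btl1 nearer to bte1 btl1 was 88.1%, against 89.3% without bte1 btl1 replicate 1 and 87% without e2f replicate 3. Of 754 list counts under alternatives, 124 moved by over 1.5 times. Of 111 called named genes, 92 were called in all 13 alternatives.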

Other observations

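A run of neighbouring genes on chromosome 5 was lower in e2f, chosen after its values were seen. AT5G55220, a trigger-factor-type chaperone gene, had 0 reads over the e2f libraries and 9064 over the bte1 btl1 libraries, at least 4440-fold lower. AT5G55210 had 0 reads in e2f and 1144 in bte1 btl1, at least 560-fold lower, and MGE1 beside it had a log2 change of -3.21. In btl1 and WT, AT5G55220 had 8474 and 13133 reads. AT5G55210 and MGE1 overlap on opposite strands, so their reads cannot be told apart. The floor is 3 reads over the libraries of a genotype, for counting error only.

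Other entries went the opposite way. The transposon-type entry AT5G32197.1 had 8175 reads over the e2f libraries and 0 over the bte1 btl1 libraries, at least 1860-fold higher, with 1 read each in btl1 and WT. Of 141 tested transposon-type entries 27 (19.1%) were higher and 29 (20.6%) lower, near the 21.8% and 20.4% of all genes. MYB21, a factor of stamen development, had 50 reads in e2f and 0 in bte1 btl1, at least 11.3-fold higher, and it overlaps other genes on the opposite strand.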
